A study of Mus musculus with 12 samples.

Results

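The cytosolic sulfotransferases were followed in the livers of alcohol-fed mice through 9 genes, *Sult1a1*, *Sult1b1*, *Sult1c2*, *Sult1d1*, *Sult1e1*, *Sult2a1*, *Sult2a8*, *Sult3a1* and *Sult5a1*, which were picked by symbol out of the 24532 genes of the expression table. All 9 had a row, and 7 had enough counts to be tested, *Sult1e1* only through the group in which it was high. Cytosolic sulfotransferases move a sulfonate group from the donor PAPS onto small molecules, which makes most of them more soluble in water and easier to excrete. SULT1 enzymes act mainly on phenols, catechols, thyroid hormones and estrogens, whereas SULT2 enzymes act on hydroxysteroids and bile acids. The liver is a main site of this conjugation, and the same reaction turns some *N*-hydroxy arylamines and benzylic alcohols into reactive esters.

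Polyadenylated RNA was sequenced from 12 livers of male C57BL/6 mice, 3 livers in each of 4 groups. All 4 groups carried *Ahr* fl/fl, a floxed exon 2 of the aryl hydrocarbon receptor gene. *Ahr* HKO mice carried Cre under the albumin promoter in addition, which acts in hepatocytes and leaves the other liver cells with the receptor, and WT mice were littermates without Cre. The mice were 10 to 12 weeks old at the start and received for 5 weeks either a Lieber-DeCarli liquid diet, in which ethanol was 5% of the volume and 36% of the calories (WT+EtOH and *Ahr* HKO+EtOH), or an isocaloric liquid diet without ethanol (WT+con and *Ahr* HKO+con). The comparisons ask what the ethanol diet changes, what the loss of the receptor in hepatocytes changes, and whether the response to ethanol depends on genotype.

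The libraries held 46306518 to 74336255 counts on genes, so that 3 counts, the smallest level taken as detectable, corresponded to 0.0404 to 0.0648 CPM before scaling. CPM, a gene's share of a library's counts, is given below after TMM scaling in edgeR. The total for *Ahr* did not fall with the label: it was 16.6 to 20.1 CPM in WT+con and 41.3 to 65.5 CPM in the libraries labelled *Ahr* HKO+con. These counts cover the whole gene and cannot separate a transcript that lacks exon 2 from an intact one, so they do not check the deletion, and the genotype is given below as labelled. *Cyp1a2*, a classical target of the receptor, was at 398 to 617 CPM in WT+con and 90.7 to 258 CPM in the libraries labelled *Ahr* HKO+con. *Cyp1a1*, another such target, went the other way, at 0.204 to 0.349 CPM in WT+con and 0.444 to 0.898 CPM in the libraries labelled *Ahr* HKO+con (called higher by edgeR, adjusted *P* value 0.0453). Hepatocyte markers summed to 70883 to 112346 CPM over the 12 livers, and the 3 kidney markers had a count in 1 liver only. Of the 3 gut markers, *Cdx2* was at 0 in all livers and *Vil1* at no more than 0.184 CPM. The other, *Fabp2*, was at 27.8 to 101 CPM. In RNA from whole liver, fewer cells of a type and less RNA per cell cannot be told apart.

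The gene starts are shown first for the 4 genes called by the interaction of genotype and diet, which is described below. Of these, *Sult1e1* entered the tests only through the group in which it was high, so its call is a description. Each line holds the 250 bases before a RefSeq start in GRCm38.p6, read 5′ to 3′ along the gene, which lies on the minus strand in each case. Capitals mark matches on either strand to GCGTG, the core bound by the aryl hydrocarbon receptor and ARNT, or to AGGTCA, a nuclear receptor half-site. The other motifs searched were TTCNNNGAA for STAT5 and GNACANNNTGTNC for the glucocorticoid receptor, and no match of one motif overlapped that of another.
*Sult2a8*, upstream start, chr7:14446588-14446837: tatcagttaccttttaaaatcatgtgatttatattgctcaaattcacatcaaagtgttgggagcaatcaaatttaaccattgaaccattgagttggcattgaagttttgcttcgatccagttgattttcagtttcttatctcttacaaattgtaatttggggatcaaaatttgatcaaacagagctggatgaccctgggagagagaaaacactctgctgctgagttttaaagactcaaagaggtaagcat
*Sult2a8*, downstream start, chr7:14438552-14438801: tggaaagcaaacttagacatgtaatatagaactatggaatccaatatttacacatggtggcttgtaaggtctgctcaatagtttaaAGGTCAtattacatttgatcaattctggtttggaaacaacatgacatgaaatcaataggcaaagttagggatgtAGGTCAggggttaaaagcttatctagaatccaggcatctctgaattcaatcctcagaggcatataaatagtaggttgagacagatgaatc
*Sult1b1*, upstream start, chr5:87538196-87538445: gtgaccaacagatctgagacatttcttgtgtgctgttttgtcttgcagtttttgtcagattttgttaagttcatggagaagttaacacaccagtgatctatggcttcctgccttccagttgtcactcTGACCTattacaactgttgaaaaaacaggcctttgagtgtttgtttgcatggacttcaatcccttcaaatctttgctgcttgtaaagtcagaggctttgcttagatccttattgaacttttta
*Sult1b1*, downstream start, chr5:87536223-87536472: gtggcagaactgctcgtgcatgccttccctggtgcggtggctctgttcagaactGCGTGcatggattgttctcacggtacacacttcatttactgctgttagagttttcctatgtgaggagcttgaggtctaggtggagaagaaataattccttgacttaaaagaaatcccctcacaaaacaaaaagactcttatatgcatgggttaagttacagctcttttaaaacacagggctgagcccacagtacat
*Sult1e1*, chr5:87591612-87591861: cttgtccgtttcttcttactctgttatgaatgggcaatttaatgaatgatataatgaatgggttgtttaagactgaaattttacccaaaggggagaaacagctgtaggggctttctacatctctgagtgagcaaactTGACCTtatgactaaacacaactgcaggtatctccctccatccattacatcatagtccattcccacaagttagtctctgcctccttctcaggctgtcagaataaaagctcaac
*Sult5a1*, chr8:123158281-123158530: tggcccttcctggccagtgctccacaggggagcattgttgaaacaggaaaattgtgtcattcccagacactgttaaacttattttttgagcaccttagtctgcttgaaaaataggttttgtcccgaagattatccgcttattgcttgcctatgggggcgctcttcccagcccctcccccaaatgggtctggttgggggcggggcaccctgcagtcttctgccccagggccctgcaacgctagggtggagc

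The core GCGTG stood once in these lines, 196 to 192 bases before the downstream start of *Sult1b1*, and 28.2% of all 32851 windows of this length held it. The half-site AGGTCA occurred 2 times before the downstream start of *Sult2a8*, at 164 to 159 and at 90 to 85 bases. It also occurred, on the opposite strand as TGACCT, at 123 to 118 bases before the upstream start of *Sult1b1* and at 113 to 108 bases before *Sult1e1*, against 14.02% of all windows. None of the 4 motifs was found in the window of *Sult5a1* or of the upstream start of *Sult2a8*. Both genes reach further upstream than these starts, to base 123158914 for *Sult5a1* and base 14446780 for *Sult2a8*, as do *Sult1a1* and *Sult3a1*. The bases before those outer ends were not searched in full. In the other windows of the genes studied, *Sult1d1* held the core (CACGC) at 47 to 43 bases and *Sult3a1* a STAT5 match at 109 to 101 bases, motifs that 28.2% and 7.02% of all windows held. The glucocorticoid receptor element, in 0.387% of all windows, was in none of the 10 windows of the 8 genes with an entry. A match of letters says nothing about binding in these livers.

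*Sult1b1*, *Sult1d1* and *Sult1e1* are neighbors within 78285 bases of chromosome 5 (GRCm38, 87513327 to 87591611), with no other protein-coding gene between them. *Sult2a8* (chromosome 7, 14410686 to 14446780) and *Sult2a1* (chromosome 7, 13796246 to 13837410) lie in a stretch of 8 *Sult2a* genes. *Sult1a1* is elsewhere on chromosome 7 (126672865 to 126690443), *Sult5a1* on chromosome 8 (123142843 to 123158914), *Sult1c2* on chromosome 17 (53829637 to 53845958) and *Sult3a1* on chromosome 10 (33851020 to 33879475). *Sult2a* genes, and *Sult3a1* with *Sult3a2*, are close copies whose reads may have been split between them, which leaves the values of *Sult2a1* and *Sult3a1* uncertain.

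Levels of different genes were compared on the FPKM scale, which is per length. *Sult1a1*, a phenol sulfotransferase, and *Sult2a8*, a bile acid sulfotransferase of mouse liver, made up most of the sulfotransferase mRNA. Together they accounted for 86.6% ± 2.3 (SD, n = 3) of the summed FPKM of the 21 *Sult* genes of the table in WT+con, 84.3% in WT+EtOH, 90.5% in the livers labelled *Ahr* HKO+con and 88.2% in those labelled *Ahr* HKO+EtOH. *Sult1d1*, which sulfonates catecholamines and is a pseudogene in humans, followed with mean FPKM of 23.3 to 42.3 over the groups. *Sult5a1* (5.17 to 13.1), the thyroid hormone sulfotransferase gene *Sult1b1* (2.99 to 6.65) and *Sult1c2* of the SULT1C subfamily (0.548 to 3.89) came next. *Sult1e1*, which encodes the estrogen sulfotransferase, had a mean FPKM of 2.01 in the livers labelled *Ahr* HKO+con and at most 0.105 in the other groups.

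The sum of the 21 genes was 333 ± 49.0 FPKM in WT+con, 383 ± 83.7 in WT+EtOH, 385 ± 91.3 in the livers labelled *Ahr* HKO+con and 428 ± 71.9 in those labelled *Ahr* HKO+EtOH (SD, n = 3). It was 365 to 507 FPKM in the livers labelled *Ahr* HKO+EtOH, all above the 277 to 363 FPKM of WT+con, and every other pair of groups overlapped. These sums were not tested. The make-up of this sum is given next. *Sult2a8* was 36.9% to 50.2% of the sum in the livers of WT+con and 8.10% to 24.8% in those of WT+EtOH. The ratio of *Sult2a8* to *Sult1a1* FPKM was 1.26, 1.304 and 0.782 in the livers of WT+con and 0.104, 0.294 and 0.420 in those of WT+EtOH. It was 0.305, 0.741 and 0.248 in the livers labelled *Ahr* HKO+con, and 0.896, 0.915 and 0.490 in those labelled *Ahr* HKO+EtOH. No liver of WT+EtOH reached the lowest ratio of WT+con, while the 2 groups labelled *Ahr* HKO overlapped. These ratios are descriptions and were not tested.

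**Figure D1:**
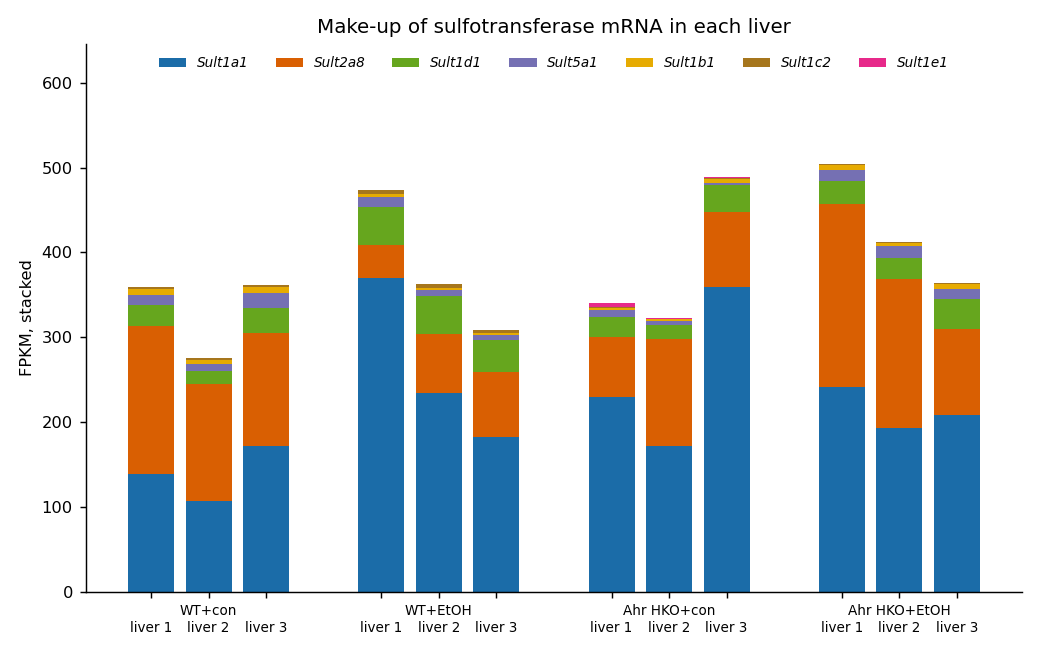
Stacked FPKM of 7 sulfotransferase genes in each of the 12 livers, grouped by genotype and diet (a bar is 1 liver, a color 1 gene). *Sult1a1* and *Sult2a8* fill most of every bar. The mean share of *Sult2a8* in the sum of all 21 genes is smallest in WT+EtOH. Its range there, 8.10% to 24.8%, overlaps the 18.1% to 39.3% of the livers labelled *Ahr* HKO+con.

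Ethanol lowered 2 of the 7 tested genes in WT livers, *Sult2a8* and *Sult1b1*, by 2.74-fold and 2.46-fold, and raised none past the thresholds (quasi-likelihood test of edgeR, called where FC exceeded 1.5 and the adjusted *P* value was under 0.05). Over all tested genes, 6.76% were called in this comparison and 3.4% were called lower. The median log2 FC was -0.01 over the 6 tested genes other than *Sult1e1*, against 0.03 for all tested genes.

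*Sult2a8* was at 390, 316 and 299 CPM in the livers of WT+con and at 81.4, 128 and 154 CPM in those of WT+EtOH. Every ethanol-fed WT liver lay below every control liver, with the lowest value in liver 1. The log2 FC was -1.45 ± 0.24 (SE) with an adjusted *P* value of 0.0152. *Sult1b1*, whose product acts on thyroid hormones, stood at 20.8, 14.3 and 19.9 CPM in WT+con and at 9.67, 5.98 and 6.56 CPM in WT+EtOH. Here too the groups did not overlap, and the log2 FC was -1.30 ± 0.22 with an adjusted *P* value of 0.0158. With 1 liver left out at a time, *Sult2a8* lost its call without WT+con liver 1 (adjusted *P* value 0.0546) or liver 2 (0.0525), and *Sult1b1* without WT+con liver 1 (0.0586) or liver 3 (0.0598).

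The other phenol-type genes pointed upward in WT without passing the adjusted threshold. *Sult1d1* was at 61.6, 40.2 and 75.2 CPM in WT+con and at 108, 94.5 and 83.9 CPM in WT+EtOH. *Sult1c2* was at 3.45, 3.25 and 3.86 CPM in WT+con and at 6.55, 5.55 and 4.04 CPM in WT+EtOH. All ethanol-fed livers exceeded all control livers for both genes, and with *Sult2a8* and *Sult1b1* this made 4 of 7 genes without overlap, against 32.9% of all tested genes. The log2 FC of *Sult1d1* was 0.71 (95% interval 0.19 to 1.23, adjusted *P* value 0.0913) and that of *Sult1c2* was 0.62 (0.15 to 1.10, adjusted *P* value 0.104).

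*Sult1a1* was at 201, 156 and 247 CPM in WT+con and at 509, 283 and 237 CPM in WT+EtOH. Liver 1 of WT+EtOH stood well above the other ethanol-fed livers, and liver 3 fell inside the control range. Its log2 FC was 0.78 (95% interval 0.08 to 1.48, adjusted *P* value 0.150), and 0.36 without that liver 1. *Sult5a1*, a little studied member of the family, was at 14.6, 9.62 and 20.4 CPM in WT+con and at 13.5, 7.62 and 7.21 CPM in WT+EtOH, with overlapping groups. Its log2 FC was -0.65 (95% interval -1.41 to 0.12, adjusted *P* value 0.258), an interval that holds both no change and a fall larger than the FC threshold.

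In the livers labelled *Ahr* HKO+con, 5 of the 7 tested genes differed from WT+con on the same control diet, where 19.9% of all tested genes were called. *Sult1e1* was higher, and *Sult1c2*, *Sult5a1*, *Sult1b1* and *Sult2a8* were lower, against 9.77% of all genes called higher and 10.1% called lower. Leaving *Sult1e1* aside, 4 of 6 were called, and the median log2 FC was -0.76 against -0.00 for all tested genes. This contrast and the WT ethanol contrast share the WT+con livers, so a high or low value there enters both.

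*Sult1e1* had 0, 0 and 5 counts in the livers of WT+con and 340, 41 and 88 counts in those labelled *Ahr* HKO+con. The corresponding levels were 0, 0 and 0.102 CPM against 5.55, 0.700 and 1.77 CPM. All 3 livers labelled *Ahr* HKO+con were above every WT+con liver, and liver 1 alone held most of the counts. The filter asked for a minimum level in 3 livers, which *Sult1e1* met in all 3 of these livers and in 2 of the other 9, so that it entered the tests only through the group in which it was high. A difference from a near-empty group was then to be expected of it, and its values are given as a description. The log2 FC was 6.23 ± 1.20 (SE) with an adjusted *P* value of 0.00903, or 0.0105 with no filter on low counts, and it was 5.12 without that liver 1. Because WT+con held counts in liver 3 only, the size of this FC rests on a near-empty group, and it was 10.19, a value set by the prior count of the fit, without that liver. Estrogen sulfotransferase mRNA was a small part of the whole, at 0.173% to 1.23% of the summed *Sult* FPKM in the livers labelled *Ahr* HKO+con.

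*Sult1c2* fell from 3.45, 3.25 and 3.86 CPM in WT+con to 0.833, 0.375 and 1.37 CPM in the livers labelled *Ahr* HKO+con. The groups were far apart relative to their spread, and the log2 FC was -2.03 ± 0.42 with an adjusted *P* value of 0.0113. *Sult1c2* kept its call with any 1 liver left out. So did *Sult1e1*, but these fits used the same filter, which it passed only through the group in which it was high.

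*Sult1b1* was at 9.29, 7.47 and 13.8 CPM in the livers labelled *Ahr* HKO+con, all below the 14.3 to 20.8 CPM of WT+con (log2 FC -0.85 ± 0.25, adjusted *P* value 0.0379). *Sult2a8* was at 156, 266 and 207 CPM against 299 to 390 CPM in WT+con, again without overlap (log2 FC -0.67 ± 0.21, adjusted *P* value 0.0458). *Sult5a1* was at 9.65, 5.14 and 3.93 CPM against 9.62 to 20.4 CPM, with 1 liver of each group at the same level (log2 FC -1.25 ± 0.38, adjusted *P* value 0.0446). These 3 calls sat close to the threshold. *Sult2a8* lost its call in 5 of the 6 fits with 1 liver left out, all but that without *Ahr* HKO+con liver 2, with adjusted *P* values up to 0.134. *Sult5a1* lost it without WT+con liver 1 or 3 or *Ahr* HKO+con liver 2 or 3, up to 0.138, and *Sult1b1* without WT+con liver 1 or 3 or *Ahr* HKO+con liver 1 or 2, up to 0.11.

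Counts of groups without overlap came to 4 of 7 on the control diet, *Sult1b1*, *Sult1c2*, *Sult1e1* and *Sult2a8*, or 3 of 6 without *Sult1e1*, against 47.3% of all tested genes. *Sult1a1* was at 329, 232 and 540 CPM in the livers labelled *Ahr* HKO+con, a spread wider than in WT+con, and overlapped with it. Its log2 FC was 0.87 (95% interval 0.13 to 1.61, adjusted *P* value 0.0757), and it was called, at 1.12 with an adjusted *P* value of 0.0286, without *Ahr* HKO+con liver 2. *Sult1d1* was at 59.4, 38.3 and 82.3 CPM, within the WT+con range apart from liver 2 just below and liver 3 above it. Its log2 FC of 0.03 had a 95% interval of -0.70 to 0.76, which holds changes as large as those called for other genes, and the sign turned with upper-quartile scaling (-0.05).

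Bile duct and leukocyte markers were measured beside *Sult1e1*, as it was nearly absent from the other groups. Of the 4 tested bile duct markers, *Epcam* was called higher in the livers labelled *Ahr* HKO+con, at 7.71, 4.86 and 2.68 CPM against 0.720 to 1.35 CPM in WT+con, and the other 3 were not called. In this comparison 9.77% of all tested genes were called higher and 10.1% lower. The summed level of the 5 listed bile duct markers was 9.50 to 13.96 CPM against 7.16 to 15.03 CPM in WT+con. Of the 4 leukocyte markers, *S100a8* was called higher and *Cd79a* lower, and the 4 summed to 12.3 to 25.6 CPM against 11.2 to 12.4 CPM. Of the 5 sinusoidal endothelium markers, *Pecam1* was called higher (0.64 ± 0.16) and none lower. The part of these markers in the rise of *Sult1e1* was not tested.

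**Figure D2:**
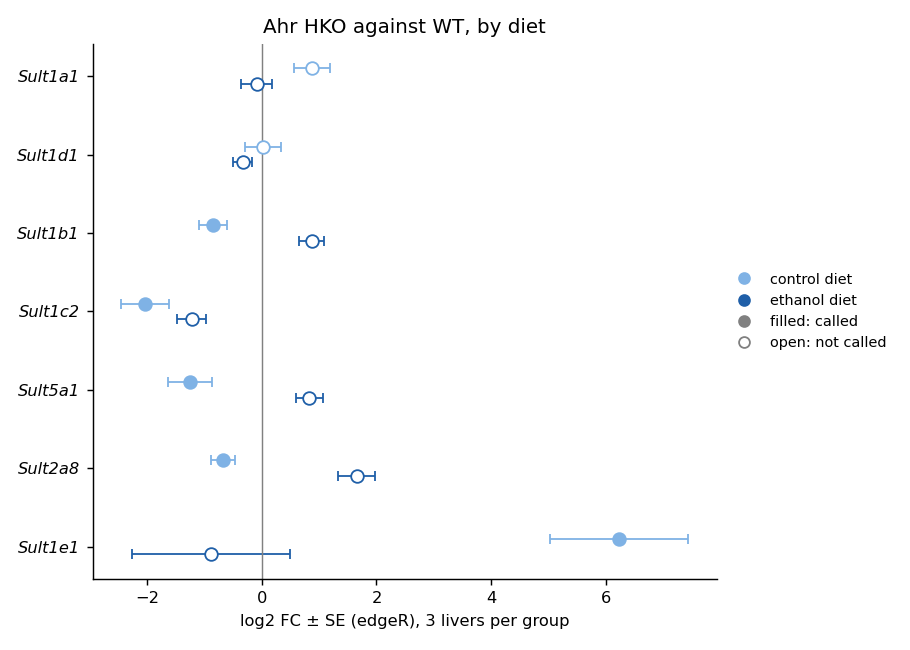
Log2 FC ± SE from edgeR of livers labelled *Ahr* HKO against WT for the 7 tested genes, on the control diet (light) and on the ethanol diet (dark), 3 livers per group (filled points were called, open points were not). On the control diet 5 points are filled, with *Sult1e1* at 6.23 far to the right, and on the ethanol diet none is filled, while *Sult2a8*, *Sult1b1* and *Sult5a1* lie to the right of 0 and *Sult1c2* to the left.

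On the ethanol diet, none of the 7 genes was called between the genotypes by edgeR, in a comparison that called 1.06% of all tested genes, 0.684% higher and 0.378% lower. At an unadjusted *P* value under 0.05, 4 of the 7 passed, as did 21.0% of all tested genes. DESeq2 called 4, and it called 1044 genes in all where edgeR called 149. The same 4, *Sult1b1*, *Sult1c2*, *Sult2a8* and *Sult5a1*, had no overlap between the groups, against 27.9% of all tested genes. The median log2 FC was 0.37 over the 6 genes other than *Sult1e1* and -0.01 for all tested genes.

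*Sult2a8* was at 498, 403 and 243 CPM in the livers labelled *Ahr* HKO+EtOH and at 81.4, 128 and 154 CPM in WT+EtOH. The lowest of the former was above the highest of the latter, and the log2 FC was 1.65 (95% interval 0.90 to 2.40, adjusted *P* value 0.0638). *Sult1b1* was at 15.4, 10.5 and 14.7 CPM against 5.98 to 9.67 CPM (log2 FC 0.87, 95% interval 0.36 to 1.39, adjusted *P* value 0.0997). *Sult5a1* was at 16.1, 17.1 and 16.7 CPM against 7.21 to 13.5 CPM (log2 FC 0.83, 95% interval 0.27 to 1.38, adjusted *P* value 0.123), and was called at 1.17 without WT+EtOH liver 1 (adjusted *P* value 0.0382). The livers labelled *Ahr* HKO+EtOH lay close together for *Sult5a1*, with a mean of 16.6 ± 0.502 CPM (SD, n = 3).

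*Sult1c2* ran the other way, at 2.95, 1.96 and 2.01 CPM in the livers labelled *Ahr* HKO+EtOH against 4.04 to 6.55 CPM in WT+EtOH. Its log2 FC was -1.22 (95% interval -1.81 to -0.63, adjusted *P* value 0.0718). Livers labelled *Ahr* HKO therefore had less *Sult1c2* than WT on either diet, without overlap in both, though only the difference on the control diet was called. *Sult1a1* was at 359, 284 and 321 CPM, within the 237 to 509 CPM of WT+EtOH. Its log2 FC of -0.09 (95% interval -0.73 to 0.55) turned to 0.31 without WT+EtOH liver 1. *Sult1d1* was at 70.2, 64.2 and 92.8 CPM against 83.9 to 108 CPM, with overlap and a log2 FC of -0.33 (95% interval -0.72 to 0.05).

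In the livers labelled *Ahr* HKO, ethanol raised *Sult5a1* and lowered *Sult1e1*, and the other 5 tested genes were not called. In this comparison 22.0% of all tested genes were called, 10.3% higher and 11.7% lower. *Sult5a1* went from 9.65, 5.14 and 3.93 CPM on the control diet to 16.1, 17.1 and 16.7 CPM on ethanol, a log2 FC of 1.41 ± 0.31 with an adjusted *P* value of 0.0146 (0.0511 without *Ahr* HKO+con liver 2). *Sult1e1* went from 340, 41 and 88 counts to 0, 4 and 7 counts, a log2 FC of -5.34 ± 1.11 with an adjusted *P* value of 0.0127, or 0.0140 with no filter. Here again the group through which it entered the tests was set against a near-empty one. That FC ranged from -6.40 without *Ahr* HKO+EtOH liver 3 to -4.19 without *Ahr* HKO+con liver 1. Both genes separated the diets completely.

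*Sult1c2* also separated the diets, at 0.833, 0.375 and 1.37 CPM on the control diet and 2.95, 1.96 and 2.01 CPM on ethanol, which made 3 of 7 genes, or 2 of 6 without *Sult1e1*, against 49.8% of all tested genes. Its log2 FC of 1.43 ± 0.46 had an adjusted *P* value of 0.0512, just outside the threshold, and 7 of the 9 alternative fits with every liver called it. *Sult2a8* went from 156, 266 and 207 CPM to 498, 403 and 243 CPM, with liver 3 of the ethanol group below liver 2 of the control group. Its log2 FC was 0.87 (95% interval 0.18 to 1.55, adjusted *P* value 0.0594), and without *Ahr* HKO+EtOH liver 3 it was called at 1.10 (0.0315). *Sult1b1* had a log2 FC of 0.41 (95% interval -0.19 to 1.01), *Sult1d1* of 0.33 (-0.33 to 1.00) and *Sult1a1* of -0.20 (-0.90 to 0.51). *Sult1a1* turned to 0.20 without *Ahr* HKO+con liver 3, the liver at 540 CPM.

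Markers of other liver cells moved in the same comparison. All 5 Kupffer cell markers were called lower, against 11.7% of all tested genes, and they summed to 99.8 to 118 CPM in the livers labelled *Ahr* HKO+EtOH against 144 to 317 CPM in those labelled *Ahr* HKO+con. The 4 leukocyte markers summed to 5.63 to 7.94 CPM against 12.3 to 25.6 CPM, with *Ptprc* and *S100a8* called lower. Of the 5 sinusoidal endothelium markers, *Stab2* and *Pecam1* were called lower, and the 5 summed to 146 to 164 CPM against 208 to 231 CPM. Stellate cell markers differed from these, with *Des* called higher (0.61 ± 0.14) and none called lower. The 5 stellate cell markers listed summed to 212 to 247 CPM against 190 to 202 CPM. Of the 4 tested bile duct markers, *Epcam* was called lower, at 0.879 to 1.85 CPM on ethanol, and *Krt19*, *Krt7* and *Sox9* were not called. Their part in the fall of *Sult1e1* and in the other values was not tested.

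The response to ethanol itself differed between the genotypes for 4 of the 7 genes, by the interaction of genotype and diet over all 12 livers (edgeR, adjusted *P* value under 0.05), a term that passed for 22.3% of all tested genes. The direction was more positive in the livers labelled *Ahr* HKO for *Sult2a8*, *Sult5a1* and *Sult1b1* (11.2% of all tested genes) and more negative for *Sult1e1* (11.1%). Leaving *Sult1e1* aside, 3 of 6 passed, and the median of the term was 1.27 against -0.03 over all tested genes.

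*Sult2a8* had the difference with the smallest adjusted *P* value, 2.33 ± 0.42 on the log2 scale (SE, adjusted *P* value 0.00348). In WT its group mean went from 335 ± 48.4 to 121 ± 36.7 CPM with ethanol, and in the livers labelled *Ahr* HKO from 209.6 ± 55.0 to 382 ± 129 CPM (SD, n = 3). For *Sult5a1* the difference was 2.07 ± 0.50 (adjusted *P* value 0.0144), with means of 14.9 ± 5.39 and 9.43 ± 3.50 CPM in WT and 6.24 ± 3.02 and 16.6 ± 0.502 CPM in the livers labelled *Ahr* HKO. For *Sult1b1* it was 1.72 ± 0.36 (adjusted *P* value 0.00786), with means of 18.3 ± 3.51 and 7.40 ± 1.98 CPM in WT and 10.2 ± 3.23 and 13.5 ± 2.64 CPM in the livers labelled *Ahr* HKO. These 3 genes share a form in which the estimates lie below 0 in WT and above 0 in the livers labelled *Ahr* HKO, although no single gene was called in both genotypes. Their interaction was called with any 1 of the 12 livers left out.

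*Sult1e1* had an interaction of -7.15 ± 1.97 (adjusted *P* value 0.0249), which carried a wide 95% interval of -11.48 to -2.83. With no filter the adjusted *P* value was 0.0276, but the term rests on the group that brought the gene into the tests, and it could not be tested where 10 counts were asked of every library. In WT it went from 0, 0 and 5 counts to 12, 10 and 0 counts. Its call was lost in 5 of the 12 fits with 1 liver left out, those without WT+con liver 1 or 2, WT+EtOH liver 1 or 2, or *Ahr* HKO+con liver 1, with adjusted *P* values of up to 0.0625. For *Sult1c2* the interaction was 0.82 (95% interval -0.28 to 1.93, adjusted *P* value 0.263). That of *Sult1d1* was -0.36 (-1.22 to 0.50) and that of *Sult1a1* -0.96 (-1.98 to 0.06), neither called, with intervals that leave room for differences of either sign.

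**Figure D3:**
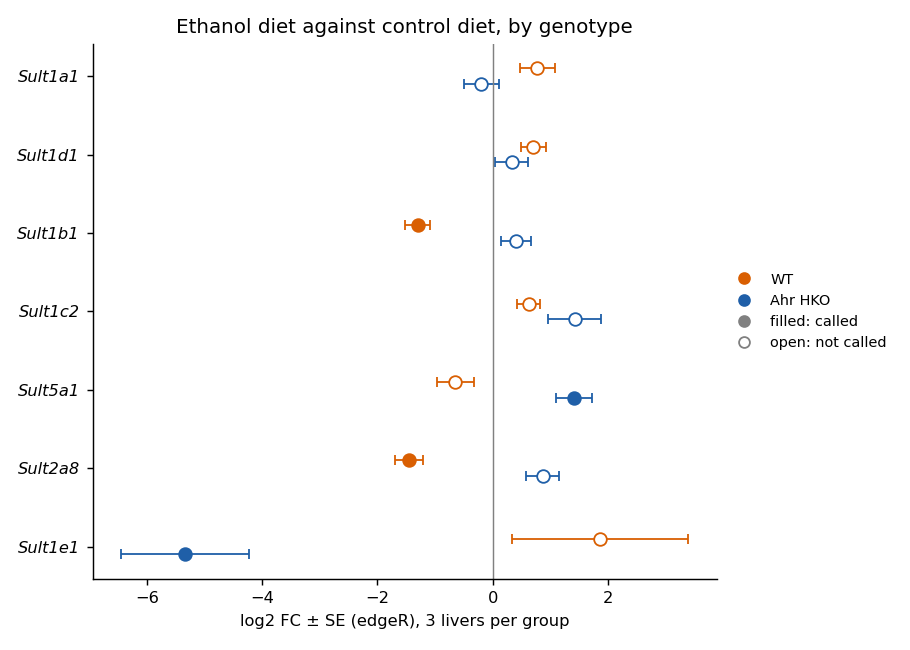
Log2 FC ± SE from edgeR of the ethanol against the control diet for the 7 tested genes, in WT and in livers labelled *Ahr* HKO, 3 livers per group (filled points were called, open points were not). For *Sult2a8*, *Sult1b1* and *Sult5a1* the WT point lies below 0 and the other above 0, and *Sult1e1* shows the reverse, at 1.86 in WT with an SE of 1.53 and at -5.34 in the livers labelled *Ahr* HKO.

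Ordered by mean CPM, the groups fell into different rankings for different genes. For *Sult2a8* the order was *Ahr* HKO+EtOH, WT+con, *Ahr* HKO+con and WT+EtOH, in which the first pair overlapped and the other neighbors did not. *Sult1b1* ran WT+con, *Ahr* HKO+EtOH, *Ahr* HKO+con and WT+EtOH, with overlap between each pair of neighbors. *Sult5a1* ran *Ahr* HKO+EtOH, WT+con, WT+EtOH and *Ahr* HKO+con, and *Sult1c2* ran WT+EtOH, WT+con, *Ahr* HKO+EtOH and *Ahr* HKO+con. Neighbors overlapped throughout for *Sult5a1* and nowhere for *Sult1c2*. *Sult1d1* was highest in WT+EtOH, followed by *Ahr* HKO+EtOH, *Ahr* HKO+con and WT+con, and *Sult1a1* was lowest in WT+con, with the other 3 groups within each other's spread.

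**Figure D4:**
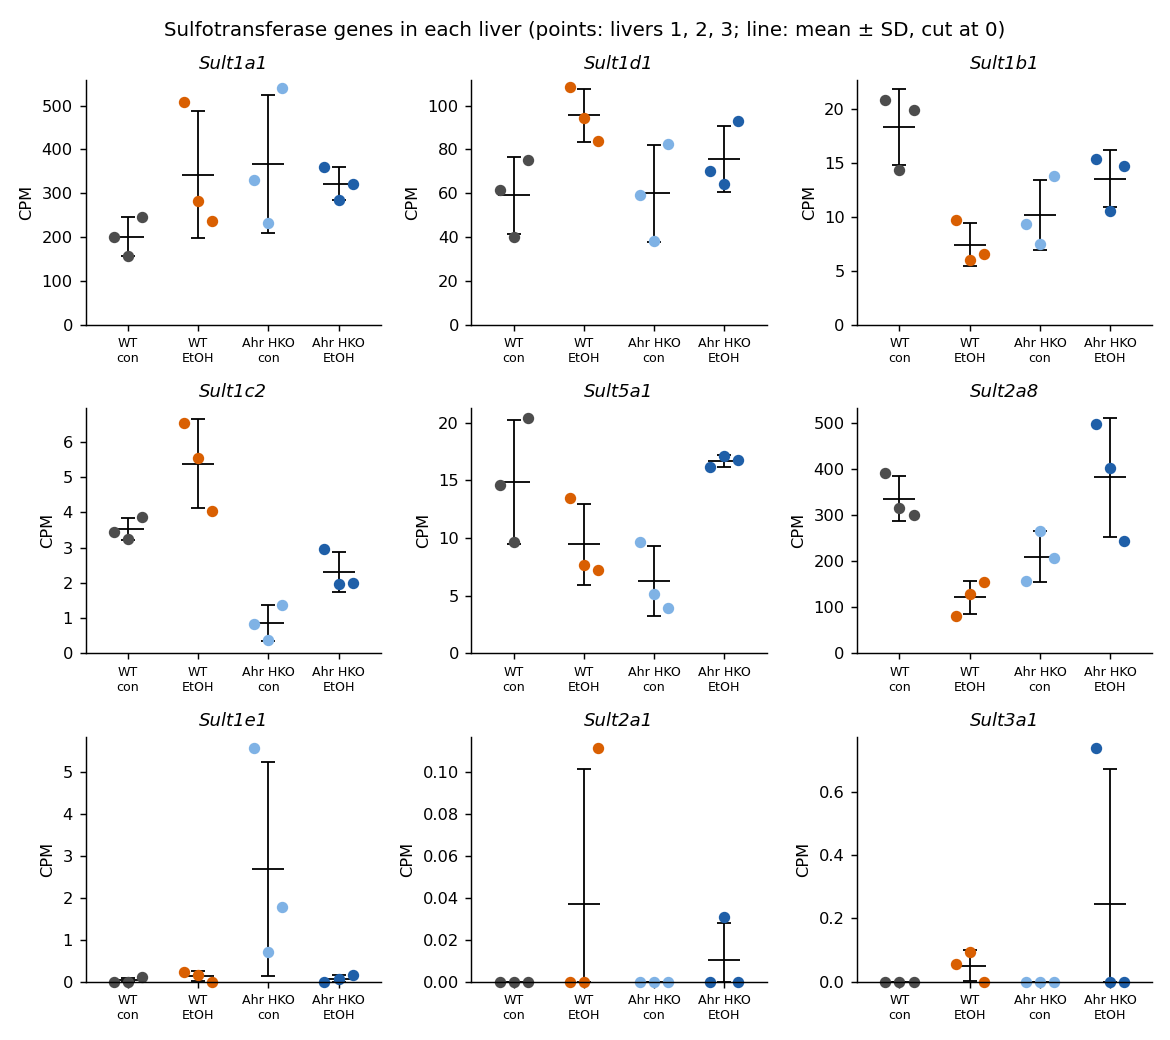
CPM of the 9 sulfotransferase genes in each liver of the 4 groups, with points for livers 1 to 3 and a line for the mean ± SD (the vertical axis differs between panels and starts at 0). *Sult1c2* separates all 4 groups, *Sult2a8* is lowest in WT+EtOH at 81.4 to 154 CPM, and *Sult1e1* stands out only in the livers labelled *Ahr* HKO+con.

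*Sult2a1* and *Sult3a1* did not pass the filter on low counts and were not tested. *Sult2a1*, the main hydroxysteroid sulfotransferase gene and one with much higher levels in female than in male mouse liver, had 7 counts in WT+EtOH liver 3, 2 counts in *Ahr* HKO+EtOH liver 2 and 0 in the other 10 livers. *Sult3a1*, which encodes an amine sulfotransferase and is likewise a gene of female liver, had 3, 6 and 0 counts in WT+EtOH and 52, 0 and 0 counts in the livers labelled *Ahr* HKO+EtOH. It had 0 counts in all 6 livers of the control diet. The 52 counts (0.737 CPM) came from a single liver, and neither gene gave a value that could be set against the spread between livers.

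The remaining 12 *Sult* genes of the table held little. *Sult2a7*, a neighbor of *Sult2a8*, was tested, with 22 to 117 counts per liver, and was called in none of the comparisons. *Sult2a2*, *Sult2b1*, *Sult4a1* and *Sult6b1* had at most 19, 7, 9 and 2 counts in any liver. *Sult1c1*, *Sult2a3*, *Sult2a4*, *Sult2a5*, *Sult2a6*, *Sult3a2* and *Sult6b2* were at 0 in all 12 livers. The fall of *Sult2a8* in WT was thus measured against a *Sult2a7* log2 FC of 0.03 (95% interval -1.11 to 1.18), too wide to say whether the neighbor moved.

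Sulfonation also depends on the supply of its donor, which is made from sulfate by PAPS synthases, moved by sulfate and PAPS carriers, and broken down by PAP phosphatases, with sulfate itself coming in part from the oxidation of sulfide and sulfite. Of 16 symbols listed for these steps, 14 were tested. In WT, ethanol raised *Ethe1*, the mitochondrial persulfide dioxygenase, and no other supply gene was called, 1 of 14 where 6.76% of all tested genes were called. It was at 54.1, 40.8 and 35.2 CPM in WT+con and 103, 64.0 and 81.9 CPM in WT+EtOH, without overlap, with a log2 FC of 0.94 ± 0.21 and an adjusted *P* value of 0.0359.

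On the control diet, 4 of the 14 supply genes were lower in the livers labelled *Ahr* HKO+con and none was higher, against 10.1% and 9.77% of all tested genes. *Papss2*, the PAPS synthase most abundant in liver, was at 79.2, 79.9 and 106 CPM against 212, 127 and 162 CPM in WT+con (log2 FC -0.91 ± 0.21, adjusted *P* value 0.0171). *Slc26a1*, which carries sulfate across the hepatocyte membrane, had a log2 FC of -0.84 ± 0.13 (adjusted *P* value 0.00421). *Slc35b2*, which brings PAPS into the Golgi, had one of -0.999 ± 0.13 (0.00243), and *Ethe1* one of -0.78 ± 0.19 (0.0189). *Papss1*, the other PAPS synthase, was at 12.7 to 18.8 CPM against 9.94 to 14.7 CPM and was not called (0.27 ± 0.20). The median log2 FC of the 14 genes was -0.14, against -0.00 for all tested genes.

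With ethanol, 3 of the 14 supply genes rose and 3 fell in the livers labelled *Ahr* HKO, against 10.3% and 11.7% of all tested genes. *Ethe1* rose from 21.4, 24.8 and 29.4 CPM to 154, 82.5 and 109 CPM (log2 FC 2.19 ± 0.24, adjusted *P* value 0.00234). *Suox*, the sulfite oxidase that makes sulfate, rose by 0.96 ± 0.22 (0.0163) and *Mpst*, a sulfurtransferase gene, by 0.75 ± 0.15 (0.0116). The genes that fell were *Slc26a2*, a sulfate carrier (-1.07 ± 0.26, 0.0209), *Slc35b3*, a Golgi PAPS carrier (-0.66 ± 0.13, 0.0106), and *Impad1*, a Golgi PAP phosphatase (-0.65 ± 0.13, 0.0104). *Papss2* had a log2 FC of 0.77 ± 0.26 with an adjusted *P* value of 0.0625. Between the genotypes on ethanol, no supply gene was called by edgeR and 3 of 14 passed an unadjusted *P* value under 0.05, close to the 21.0% of all tested genes. The interaction was called for *Ethe1* (1.26 ± 0.35), *Mpst* (1.00 ± 0.20) and *Impad1* (-0.68 ± 0.17), 3 of 14 where 22.3% of all tested genes passed.

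**Figure D5:**
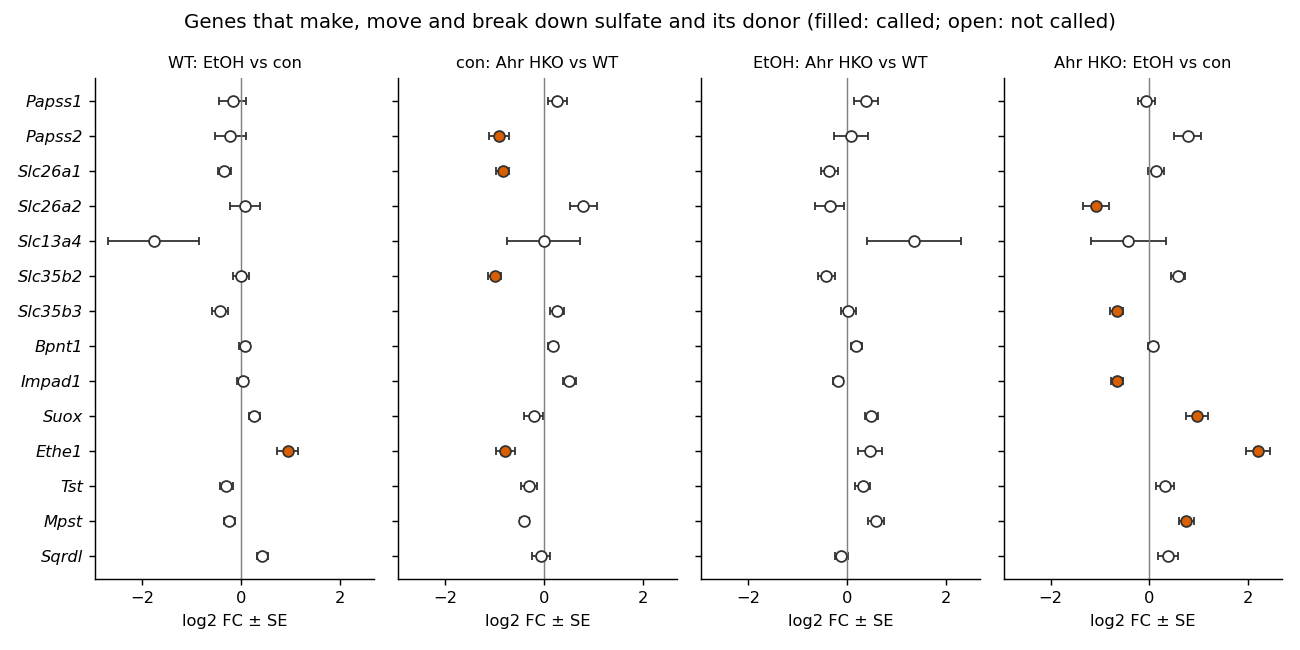
Log2 FC ± SE from edgeR of 14 genes for the synthesis, transport and breakdown of PAPS and sulfate, 1 panel for each pair of groups with 3 livers per group (filled points were called, open points were not). *Ethe1* is called in 3 panels, with its largest value of 2.19 for ethanol in the livers labelled *Ahr* HKO, and *Papss2* is called only between the genotypes on the control diet.

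Genes that remove sulfate groups, and the Golgi sulfotransferases that use the same donor on proteins, lipids and glycans, were taken from 2 further lists. The first held 10 tested genes, 8 sulfatases and the sulfatase-modifying factors *Sumf1* and *Sumf2*. By edgeR, ethanol in WT called none, with *Arsa* and *Sumf2* at an unadjusted *P* value under 0.05, 2 of 10 against 26.4% of all tested genes. *Arsa* missed only the FC threshold there, with a log2 FC of 0.58 ± 0.08 and an adjusted *P* value of 0.0104. Its interaction of genotype and diet, 0.18 ± 0.18, was not called. The genotype on the control diet called 1 of 10, *Arsb* (-0.59 ± 0.08), against 19.9% of all. Ethanol in the livers labelled *Ahr* HKO called 2 of 10, *Arsa* (0.75 ± 0.16) and *Galns* (0.73 ± 0.20), both lysosomal enzymes, against 22.0% of all. Of 19 tested Golgi sulfotransferase genes, only *Tpst2* was called with ethanol in WT (-0.61 ± 0.12), where 6.76% of all tested genes were. Only *Chst2* was called in the livers labelled *Ahr* HKO+con, lower than in WT+con (-0.93 ± 0.26), where 19.9% of all were. Ethanol in the livers labelled *Ahr* HKO raised *Gal3st1*, which makes sulfatide (2.06 ± 0.40), and lowered *Ust* (-1.11 ± 0.30) and *Chst13* (-0.62 ± 0.19), 3 of 19 where 22.0% of all tested genes were called.

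Among 21 tested receptors and factors known to act on sulfotransferase or other drug metabolism genes, *Nr1i3*, the constitutive androstane receptor gene, rose with ethanol in both genotypes. It was at 102.5, 93.7 and 84.9 CPM in WT+con and 159, 149 and 157 CPM in WT+EtOH (log2 FC 0.74 ± 0.10, adjusted *P* value 0.00802). In the livers labelled *Ahr* HKO it was at 58.8, 45.2 and 77.2 CPM on the control diet and 135, 113 and 122 CPM on ethanol (1.03 ± 0.20, 0.0108). *Nfe2l2*, the antioxidant response factor, rose with ethanol in WT (0.66 ± 0.13), which made 2 of 21 called higher against 3.36% of all tested genes. In the livers labelled *Ahr* HKO+con, *Hnf4a* (0.97 ± 0.14) and *Esr1* (0.75 ± 0.19) were higher than in WT+con, as was the total of *Ahr* (1.63 ± 0.19), while *Nr1i3* (-0.63 ± 0.20) was lower. Of the 21, 5 were called in that comparison, against 19.9% of all.

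With ethanol in the livers labelled *Ahr* HKO, *Rora* rose (0.73 ± 0.14), and *Ahr* (-0.79 ± 0.24), *Arnt* (-0.61 ± 0.14) and *Nr1h4* (-0.61 ± 0.19) fell, and 6 of 21 were called against 22.0% of all. The interaction was called for 3 of 21, *Ahr* (-1.23 ± 0.31) and *Arnt* (-0.67 ± 0.16) among them, against 22.3% of all. No gene of this list was called by edgeR between the genotypes on ethanol, where 1.06% of all tested genes were. At an unadjusted *P* value under 0.05, 8 of 21 passed, against 21.0% of all.

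For each tested sulfotransferase gene, the gene outside the family with the most similar profile was taken as that with the highest Pearson's r of log2 CPM over the 12 livers. These were *Isg20l2* for *Sult1a1* (r = 0.90), *Slc43a1* for *Sult1b1* (0.946), *2210408F21Rik* for *Sult1c2* (0.959), *Rel* for *Sult1d1* (0.878), *Rrp12* for *Sult1e1* (0.946), *Casd1* for *Sult2a8* (0.899) and *Hjurp* for *Sult5a1* (0.939). Each pair of values comes from 1 library and shares its depth and its group, and each r is the highest of the genes tested, so these are descriptions of the 12 livers.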

How the data were processed

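RNA-seq of 12 mouse livers was analyzed, 3 for each of WT+con, WT+EtOH, *Ahr* HKO+con and *Ahr* HKO+EtOH, grouped by their labels, which name no batch or date. The authors deposited read counts per gene without normalization, and from them FPKM (scaled by the authors to gene length and library size) and TPM (a further scaling by the authors, read only for its totals of 924962 to 987569). Their processing notes list mm10, FastQC 0.11.7, Trimmomatic 0.38, HISAT2 2.1.0, Bowtie2 2.3.4.1 and StringTie 1.3.4d, without a role, and how reads shared by similar genes were counted is not given in the sources used here. Of the counts from 1 to 29, 57.0% were even, so both ends of a fragment may have been counted.

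Counts of 14038 genes that passed filterByExpr over the 4 groups were tested with edgeR 4.0.16 in R 4.3.3 (TMM factors of 0.925 to 1.16, quasi-likelihood, two-sided). Each pair of groups was fitted on its own 6 libraries and the interaction on all 12, with Benjamini-Hochberg adjustment over all tested genes. A gene was called between a pair of groups where its FC exceeded 1.5 and its adjusted *P* value was below 0.05, and for the interaction by the adjusted *P* value alone. The paper's own test was run on quantile-normalized log FPKM, here an alternative with limma 3.58.1. The code was tested on simulated data. *P* values and SDs measure the spread between 3 livers, and none of the 66 pairs of libraries was identical. The floor of 3 counts covers counting error only.

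Genes named outside the 9 were the other *Sult* genes, at most 6 called genes per list and comparison with the largest log2 FC, the gene with the most similar profile, and *Ahr*, *Cyp1a1* and *Cyp1a2* for the labels; markers, *Papss1*, *Sumf1* and *Sumf2* were named after their values were seen. The 9 genes, lists and tests were chosen with earlier results of these data known. The values of 1 listed gene are not reported here. Gene positions and the bases before gene starts came from RefSeq (GRCm38.p6), where 8 of the 9 genes had an entry and *Sult2a1* was not analyzed. Each value was also computed with DESeq2 1.42.0 (Wald test), with upper-quartile factors, without the filter, with 10 or more counts asked of every library, without a minimum FC, with replicate numbers blocked, with limma on log2(FPKM + 0.1) and on log2(FPKM + 1), the latter also after quantile normalization, with 1 fit of all 12 libraries, and with each liver left out in turn. Figures were drawn with matplotlib 3.10.9.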

Additional observations from a re-analysis of the deposited data

Results flagged for a closer look

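For 4 sulfotransferase genes the response to the ethanol diet differed between WT and the livers labelled *Ahr* HKO by a test of the difference itself, the interaction of genotype and diet in edgeR over 12 livers. The term was 2.33 on the log2 scale for *Sult2a8* (95% interval 1.42 to 3.24, adjusted *P* value 0.00348), 2.07 for *Sult5a1* (0.97 to 3.17, 0.0144), 1.72 for *Sult1b1* (0.92 to 2.52, 0.00786) and -7.15 for *Sult1e1* (-11.48 to -2.83, 0.0249). *Sult1e1* rests on 340, 41 and 88 counts in the livers labelled *Ahr* HKO+con and at most 12 counts in any other liver, and it passed the filter on low counts only through that group, in which it was high. All 4 terms share the control-diet livers of both genotypes, and 22.3% of all tested genes passed the same test.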

How the results depend on the processing

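The interactions of *Sult1b1*, *Sult2a8* and *Sult5a1* were called under every alternative and with any of the 12 livers left out. That of *Sult1e1* was not called in 5 fits with 1 liver left out or with the replicate block, and it was not tested where 10 counts in every library were asked for.

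The count of sulfotransferase genes called for ethanol in WT, 2, became 4 with DESeq2 and with limma on log2(FPKM + 0.1), and 0 to 3 with 1 liver left out. The genotypes on the control diet gave 5, which became 3 with no filter on low counts and with limma on log2(FPKM + 1) or log2(FPKM + 0.1), and 2 to 4 with 1 liver left out. The genotypes on ethanol gave 0, which became 4 with DESeq2, 1 with limma on log2(FPKM + 1) or log2(FPKM + 0.1) (*Sult1c2*, lower), 1 with all 12 libraries in a single fit (*Sult2a8*, higher), and 0 to 1 with 1 liver left out. Ethanol in the livers labelled *Ahr* HKO gave 2, which became 4 with DESeq2 and with all 12 libraries in a single fit, and 1 to 3 with 1 liver left out. The interaction gave 4, and 3 to 4 with 1 liver left out. The number of all genes called moved as well. For ethanol in WT, 949 became 1440 with DESeq2 and 366 to 841 with 1 liver left out. For the genotypes on the control diet, 2788 became 2177 to 2778 with 1 liver left out. For the genotypes on ethanol, 149 became 1044 with DESeq2 and 7 to 189 with 1 liver left out. For ethanol in the livers labelled *Ahr* HKO, 3090 became 3507 with DESeq2 and 2268 to 2977 with 1 liver left out. The cause of these changes was not tested. A liver left out leaves 2 against 3, and no minimum FC changed no count by more than 1.5 times.

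No pairing of the livers by replicate number was seen, though 3 livers per group cannot exclude one. The correlation of deviations between livers with the same number ranged from -0.09 to 0.18. In no comparison did every liver correlate best with its own number. Between the genotypes on ethanol, livers 1 and 2 did (0.18 and 0.13) and liver 3 did not. With the number as a block, the counts were 1 for ethanol in WT (*Sult2a8* at an adjusted *P* value of 0.0509), 4 and 1 for the genotypes on the control and ethanol diets, 2 for ethanol in the livers labelled *Ahr* HKO, and 3 for the interaction. Over all tested genes these fits called, in that order, 503 (949 without the block), 2412 (2788), 243 (149), 2546 (3090) and 2745 (3137).

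Of the log2 FCs of single genes, 264 of 303 kept direction and call under other settings, and 220 of 252 with 1 liver left out. *Sult1d1* between the genotypes on the control diet turned to -0.052 with upper-quartile scaling and -0.036 with limma on quantile-normalized log2(FPKM + 1), and ranged from -0.27 to 0.27 with 1 liver left out. *Sult1a1* ranged from -0.44 to 0.20 for ethanol in the livers labelled *Ahr* HKO and from -0.30 to 0.31 between the genotypes on ethanol. None of these was called. *Sult2a8* between the genotypes on the control diet lost its call in 6 of 9 other settings and *Sult5a1* in 4 of 9. Depth limits *Sult1e1*, *Sult2a1* and *Sult3a1*, which had 0 counts in many livers.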
